A study of Chromochloris zofingiensis with 6 samples.

Results

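The 8 genes described here encode the lycopene cyclases, carotenoid hydroxylases and carotenoid ketolases of the green microalga Chromochloris zofingiensis. They were chosen by gene identifier from the carotenoid list of the study, as LCYe, LCYb, CYP97A and its paralogue, CYP97C, CHYb, BKT1 and BKT2, and they are 8 of the 15037 genes listed in at least 1 library. All 8 had a mean of at least 1 FPKM (sequenced fragments relative to the length of the transcript and to the mapped fragments of the library) at 0 h or at 6 h and so were among the 13886 genes tested. The study sequenced poly-A RNA of strain ATCC30412 to follow the response to salt, with 3 cultures at 0 h and 3 cultures at 6 h after cells in exponential growth had been spun down, washed and resuspended in fresh Kuhl medium with 200 mM NaCl. Both groups came from columns under continuous light and CO2-enriched air, and each library stands for 1 culture. The series holds no culture kept for 6 h without salt, so salt, time, handling and fresh medium cannot be told apart in any difference below.

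Lycopene is the red, linear carotenoid at which the pathway of plants and green algae splits. Lycopene epsilon-cyclase together with lycopene beta-cyclase makes alpha-carotene, which hydroxylases turn into lutein, the main xanthophyll of the light-harvesting complexes. Lycopene beta-cyclase alone makes beta-carotene, which hydroxylases and ketolases turn into zeaxanthin, canthaxanthin and the red ketocarotenoid astaxanthin, for whose accumulation under stress this alga is known. Gene names and identifiers are those of the study, and the positions of the genes in the genome were not used here.

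The main differences between the times lay at the cyclases and at a single ketolase. The transcript of LCYe was 7.57-fold lower at 6 h, that of LCYb 3.02-fold higher and that of BKT1 3.48-fold higher, as ratios of mean deposited FPKM. The CYP97A paralogue was 2.55-fold lower. CYP97A, CHYb and BKT2 did not pass the test. CYP97C was 2.10-fold lower on deposited FPKM and passed the limit on p but not the limit on size. That limit was set on values scaled between libraries, where the log2 fold change was -0.78 for CYP97C and -1.06 for the paralogue. A gene was called higher or lower where limma gave a Benjamini-Hochberg adjusted p under 0.05 and the size of the log2 fold change was 1 or more. This rule called 2 of the 8 genes higher and 2 lower. Over all genes tested the same rule called 20.0% higher and 26.6% lower, 46.6% in all, so a share of 4 in 8 is near that of the transcriptome as a whole. The median log2 fold change of the 8 genes was 0.47, beside -0.04 over all genes tested. On deposited FPKM the 3 values at 6 h did not overlap the 3 values at 0 h for 5 of the 8 genes, 2 of them higher and 3 lower, whereas 73.3% of all genes tested did not overlap (27.2% higher and 46.1% lower).

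**Figure D1:**
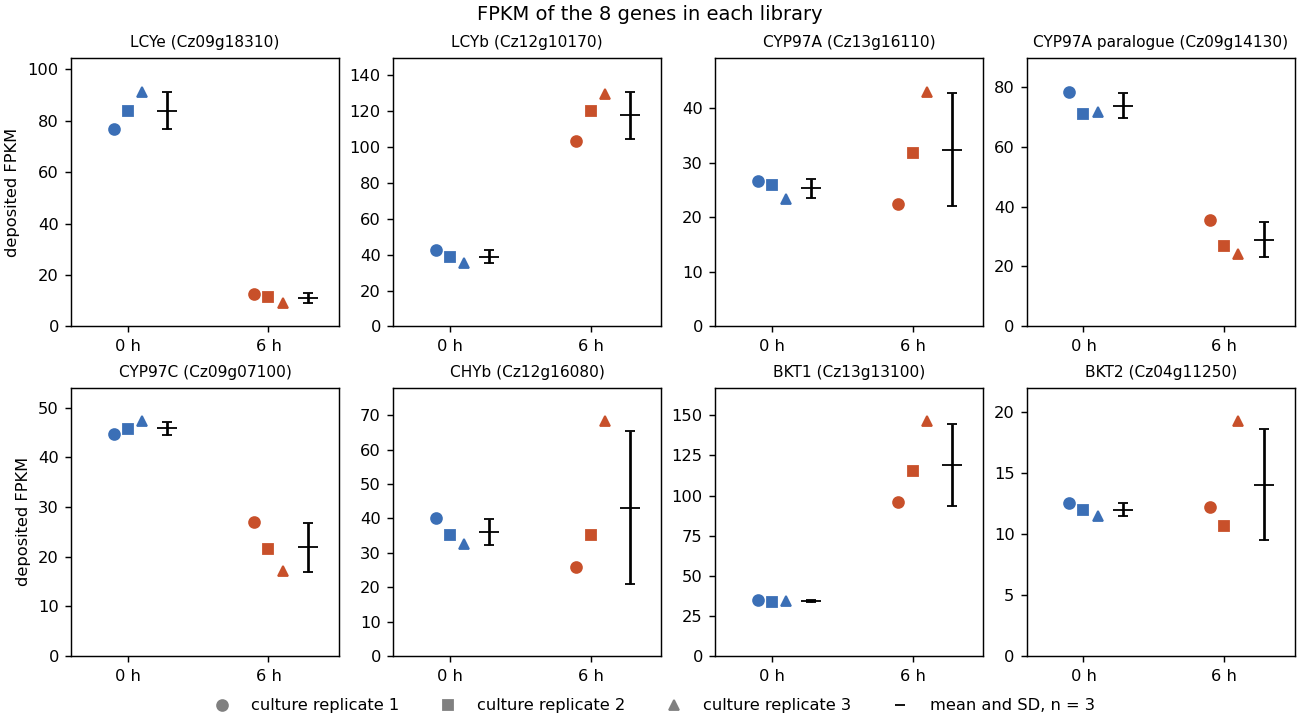
Deposited FPKM (vertical axis, from 0) of each of the 8 genes in the 3 cultures at 0 h (blue) and the 3 cultures at 6 h (orange); the black mark and bar are the mean and SD of the 3 cultures. LCYe falls from between 76.7 and 91.29 to between 9.19 and 12.73 FPKM, LCYb and BKT1 rise in every culture, and CHYb at 6 h spreads from 26 to 68.2 FPKM.

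LCYe (Cz09g18310.t1), the epsilon-cyclase that commits lycopene to alpha-carotene, had 76.7, 83.74 and 91.29 FPKM at 0 h and 12.73, 11.34 and 9.19 FPKM at 6 h. Every 6 h culture lay far below every 0 h culture. The mean fell from 83.9 ± 7.30 to 11.1 ± 1.78 FPKM (SD, n = 3). On scaled values the log2 fold change of LCYe was -2.61 (SE 0.16, 95% interval -3.00 to -2.22, limma, Benjamini-Hochberg adjusted p = 3.82e-05). Log2 fold changes here and below are of FPKM divided by a median-of-ratios factor of the library with 0.1 added, which understates the change of genes with low values. The position of LCYe within a library, as the percent of genes tested with a lower FPKM, moved from between 84.3 and 87.3 at 0 h to between 27.4 and 38.0 at 6 h.

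LCYb (Cz12g10170.t1), the beta-cyclase that closes the beta rings of both alpha- and beta-carotene, had 42.56, 38.82 and 35.32 FPKM at 0 h and 103.33, 120.25 and 129.34 FPKM at 6 h. All 3 values at 6 h were above all 3 at 0 h, and the mean rose from 38.9 ± 3.62 to 118 ± 13.2 FPKM (SD, n = 3). The log2 fold change of LCYb was 1.90 (SE 0.13, 95% interval 1.59 to 2.21, limma, Benjamini-Hochberg adjusted p = 5.48e-05). Its cultures at 6 h were close to each other for this study: the SD of its log2 values was 0.14, and 82.7% of the genes tested had a larger one.

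The ratio of the 2 cyclase transcripts within a library does not depend on the scaling between libraries. LCYb over LCYe was 0.555, 0.464 and 0.387 in the cultures at 0 h and 8.12, 10.6 and 14.1 at 6 h. LCYe was thus the more abundant cyclase transcript in every 0 h culture and LCYb in every 6 h culture. The mean ratio went from 0.468 ± 0.0841 to 10.9 ± 2.99 (SD, n = 3), a 23.3-fold difference, and the mean log2 ratio differed by 4.52 (exact two-sided permutation p = 0.1, which is the smallest that 3 against 3 libraries can give, and 0.117 after Benjamini-Hochberg adjustment over 7 ratios). Over the 9 pairs of a 6 h with a 0 h culture the log2 difference ran from 3.87 to 5.18.

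A further gene annotated as a lycopene cyclase, of the CruP type (Cz07g07080), stands outside the 8 genes. Its values were 36.41, 36.46 and 36.83 FPKM at 0 h and 9.92, 8.25 and 8.11 FPKM at 6 h, with no overlap. The log2 fold change of this CruP-type gene was -1.75 (SE 0.14, limma, Benjamini-Hochberg adjusted p = 9.95e-05), so it was called lower, as was LCYe.

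The hydroxylases add the hydroxyl groups that make a carotene a xanthophyll, and 4 of the 8 genes encode them. In plants CYP97A and CYP97C are cytochrome P450 enzymes that act mainly on the beta ring and the epsilon ring of alpha-carotene, and CHYb is a non-haem diiron enzyme that acts on beta rings. CYP97C (Cz09g07100.t1) had 44.76, 45.67 and 47.29 FPKM at 0 h and 26.93, 21.64 and 17.06 FPKM at 6 h. The groups did not overlap, and the mean went from 45.9 ± 1.28 to 21.9 ± 4.94 FPKM (SD, n = 3). The log2 fold change of CYP97C was -0.78 (SE 0.19, 95% interval -1.24 to -0.33, limma, Benjamini-Hochberg adjusted p = 0.0108), under the limit of 1 in size. It was -1.09 on deposited values, -1.22 on TPM (FPKM brought to the same sum in every library) and -1.09 with each library divided by its upper quartile, and CYP97C was called lower under each of these.

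The CYP97A paralogue (Cz09g14130.t1), which the study lists under CYP97A with an annotation as a CYP97B-type P450, had 78.33, 70.99 and 71.61 FPKM at 0 h and 35.53, 26.96 and 24.26 FPKM at 6 h. Each 6 h culture lay below each 0 h culture, and the mean fell from 73.6 ± 4.07 to 28.9 ± 5.88 FPKM (SD, n = 3). The log2 fold change of the paralogue was -1.06 (SE 0.17, 95% interval -1.48 to -0.63, limma, Benjamini-Hochberg adjusted p = 0.00222). This call stood at the limit on size: it was lost without 0 h replicate 1 (-0.998), without 6 h replicate 3 (-0.92) and when the limit of 1 was placed inside the test (limma treat, Benjamini-Hochberg adjusted p = 0.819), which left LCYe as the single gene of the 8 called lower.

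CYP97A (Cz13g16110.t1) had 26.74, 25.89 and 23.34 FPKM at 0 h and 22.47, 31.79 and 43.07 FPKM at 6 h. The deposited values overlapped, since 6 h replicate 1 was the lowest of all 6, while on scaled values all 3 cultures at 6 h were above those at 0 h. Its mean was 25.3 ± 1.77 FPKM at 0 h and 32.4 ± 10.3 FPKM at 6 h (SD, n = 3), with a log2 fold change of 0.62 (SE 0.24, 95% interval 0.04 to 1.19, limma, Benjamini-Hochberg adjusted p = 0.0567). The log2 fold change of CYP97A was 0.18 on TPM, 0.40 without 6 h replicate 3 and 0.84 without 6 h replicate 1. In the last case (limma, Benjamini-Hochberg adjusted p = 0.00723) and with library weights (0.61, adjusted p = 8.45e-06) CYP97A passed the limit on p but not that on size. The fit of the library weights stopped before full convergence on these 6 libraries, so its p-values are given only as an alternative.

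CHYb (Cz12g16080.t1) had 40.24, 35.19 and 32.63 FPKM at 0 h and 26, 35.22 and 68.2 FPKM at 6 h. As deposited, 6 h replicate 1 lay below all 0 h cultures, replicate 2 among them and replicate 3 above them. On scaled values replicate 1 (29.4) lay among the 0 h cultures (28.8 to 36.4), and replicates 2 (38.5) and 3 (74.9) above them. The groups thus overlapped on both scales. The mean was 36.0 ± 3.87 FPKM at 0 h and 43.1 ± 22.2 FPKM at 6 h (SD, n = 3). The log2 fold change of CHYb was 0.45 (SE 0.34, 95% interval -0.38 to 1.29, limma, Benjamini-Hochberg adjusted p = 0.277), and the interval holds changes in either direction. Without 6 h replicate 3 it was 0.077 and without 6 h replicate 1 it was 0.74. The SD of the log2 values at 6 h was 0.69, which 18.0% of the genes tested exceeded, beside a median of 0.34 over all genes at 6 h and of 0.10 at 0 h.

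Ratios between the P450 genes within a library stood apart between the times. CYP97A over CYP97C was 0.597, 0.567 and 0.494 at 0 h, against 0.834, 1.47 and 2.52 at 6 h, and CYP97A over its paralogue was 0.341, 0.365 and 0.326 at 0 h, against 0.632, 1.18 and 1.78 at 6 h. Neither ratio overlapped between the times, and the mean log2 ratios differed by 1.40 and 1.68 (exact two-sided permutation p = 0.1 for each, 0.117 adjusted over the 7 ratios). CHYb over CYP97A, the beta-ring hydroxylases of the di-iron and the P450 kind, was 1.50, 1.36 and 1.40 at 0 h, against 1.16, 1.11 and 1.58 at 6 h. Here the groups overlapped, with a log2 difference of -0.16 that ran from -0.44 to 0.22 over the pairs of cultures (exact two-sided permutation p = 0.4). Both genes had their lowest deposited value at 6 h in replicate 1 and their highest in replicate 3.

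The summed FPKM of the 3 P450 genes was 149.83, 142.55 and 142.24 at 0 h, against 84.93, 80.39 and 84.39 at 6 h, without overlap. On scaled values the log2 difference of the sum was -0.49 (exact two-sided permutation p = 0.1, 0.125 after Benjamini-Hochberg adjustment over 5 sums). The mean of the deposited sums was 145 ± 4.30 FPKM at 0 h and 83.2 ± 2.48 FPKM at 6 h (SD, n = 3). For CHYb and CYP97A together the sum was 61.3 ± 5.51 FPKM at 0 h and 75.6 ± 32.3 FPKM at 6 h (SD, n = 3). That sum overlapped between the times (log2 difference 0.53, exact two-sided permutation p = 0.2). Its log2 difference was 0.21 without 6 h replicate 3 and 0.79 without 6 h replicate 1.

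The ketolases put the keto groups on the beta rings that set canthaxanthin and astaxanthin apart from zeaxanthin. BKT1 (Cz13g13100.t1) had 35, 33.53 and 34.28 FPKM at 0 h and 95.91, 115.24 and 146.28 FPKM at 6 h. No 6 h culture came near the 0 h cultures, which differed little from each other. The mean of BKT1 rose from 34.3 ± 0.735 to 119 ± 25.4 FPKM (SD, n = 3), with a log2 fold change of 2.08 (SE 0.16, 95% interval 1.70 to 2.47, limma, Benjamini-Hochberg adjusted p = 8.80e-05). Of the genes tested, 94.2% had a lower log2 fold change than BKT1, and 92.9% a lower one than LCYb.

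BKT2 (Cz04g11250.t1) had 12.6, 12.01 and 11.48 FPKM at 0 h and 12.24, 10.7 and 19.27 FPKM at 6 h. As deposited, 6 h replicate 3 stood above all other cultures, replicate 1 among the 0 h values and replicate 2 below them, whereas on scaled values all 6 h cultures were above all 0 h cultures. The mean was 12.0 ± 0.560 FPKM at 0 h and 14.1 ± 4.57 FPKM at 6 h (SD, n = 3). BKT2 had a log2 fold change of 0.48 (SE 0.24, 95% interval -0.09 to 1.06, limma, Benjamini-Hochberg adjusted p = 0.114), which was 0.25 without 6 h replicate 3 and 0.048 on TPM.

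BKT1 was the more abundant ketolase transcript in all 6 libraries, and its share was larger at 6 h. It held 73.5, 73.6 and 74.9% of the summed BKT1 and BKT2 FPKM at 0 h and 88.7, 91.5 and 88.4% at 6 h. As a ratio, BKT1 over BKT2 was 2.78, 2.79 and 2.99 at 0 h, against 7.84, 10.8 and 7.59 at 6 h, a log2 difference of 1.60 without overlap (exact two-sided permutation p = 0.1, 0.117 adjusted over the 7 ratios). The 2 ketolase genes together had 46.3 ± 1.13 FPKM at 0 h and 133 ± 29.4 FPKM at 6 h (SD, n = 3). Their scaled sum differed by 1.81 on the log2 scale (exact two-sided permutation p = 0.1).

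BKT1 and CHYb, which act on the same beta-carotene-derived substrates, had nearly equal transcript levels at 0 h. BKT1 over CHYb was 0.870, 0.953 and 1.05 in those cultures and 3.69, 3.27 and 2.14 at 6 h. The ratio was above 2 in every 6 h culture and lowest in replicate 3, the culture with the most CHYb transcript. Its mean log2 value differed by 1.63 between the times (exact two-sided permutation p = 0.1, 0.117 adjusted over the 7 ratios).

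**Figure D2:**
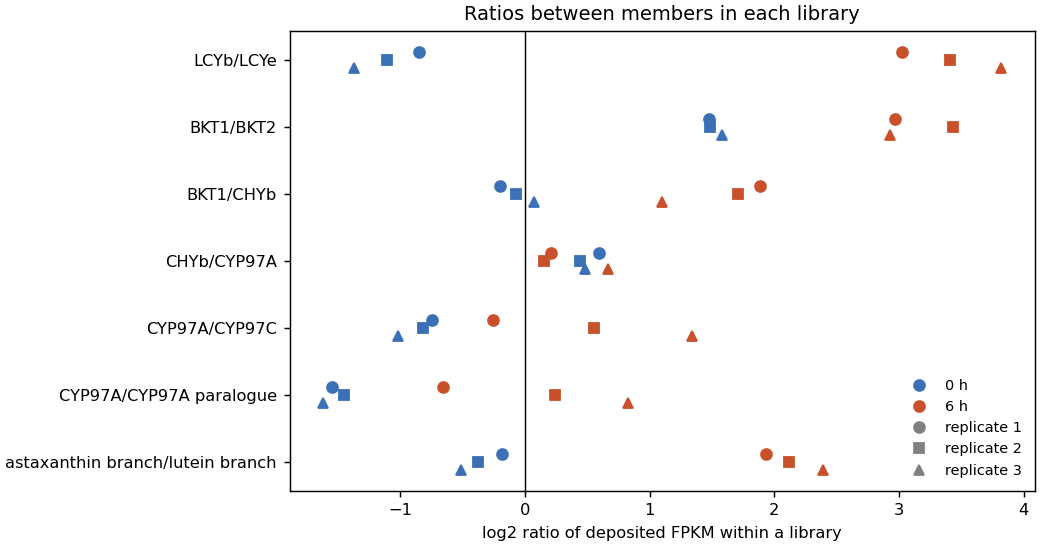
Log2 ratio of deposited FPKM between genes of the same library (horizontal axis; 0 is equal levels) for 7 ratios, at 0 h (blue) and 6 h (orange), with 1 symbol per culture. LCYb over LCYe crosses from below to above equality with a difference of 4.52, and CHYb over CYP97A is the single ratio of the 7 whose groups overlap.

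As sums by branch, LCYe, CYP97A and CYP97C were taken as the lutein branch and LCYb, CHYb, BKT1 and BKT2 as the astaxanthin branch. LCYb serves both branches, and the CYP97A paralogue was left out of both. CYP97A, a beta-ring hydroxylase like CHYb, was counted in the lutein branch only, and no other placing of it was tried. The lutein branch had 148.2, 155.3 and 161.92 FPKM at 0 h and 62.13, 64.77 and 69.32 FPKM at 6 h. The astaxanthin branch had 130.4, 119.55 and 113.71 FPKM at 0 h and 237.48, 281.41 and 363.09 FPKM at 6 h. Neither sum overlapped between the times, and their scaled log2 differences were -0.94 and 1.57 (exact two-sided permutation p = 0.1 for each, 0.125 adjusted over the 5 sums). The genes of a branch did not all move with its sum. In the lutein branch mean LCYe went from 83.9 to 11.1 FPKM and CYP97C from 45.9 to 21.9, but CYP97A from 25.3 to 32.4. In the astaxanthin branch LCYb and BKT1 were called higher, while CHYb and BKT2 were not called. The ratio of the astaxanthin to the lutein branch was 0.880, 0.770 and 0.702 at 0 h, against 3.82, 4.34 and 5.24 at 6 h, a log2 difference of 2.50 (exact two-sided permutation p = 0.1). It was 2.31 with LCYb left out and 2.54 with the paralogue counted in the lutein branch.

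The summed FPKM of the 8 genes was 356.93, 345.84 and 347.24 at 0 h, against 335.14, 373.14 and 456.67 at 6 h, so the totals overlapped while their make-up differed. LCYe held 24.0 ± 2.41% of the total at 0 h and 2.95 ± 0.896% at 6 h (SD, n = 3). LCYb went from 11.1 ± 0.882 to 30.5 ± 1.98% and BKT1 from 9.79 ± 0.0894 to 30.5 ± 1.74%. LCYb and BKT1 were the top 2 of the 8 genes in every 6 h culture.

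FPKM are per length, so levels can be ordered between genes. At 0 h the order of means was LCYe (83.9), the CYP97A paralogue (73.6), CYP97C (45.9), LCYb (38.9), CHYb (36.0), BKT1 (34.3), CYP97A (25.3) and BKT2 (12.0 FPKM). LCYe and the paralogue overlapped in their cultures and so did not differ beyond their spread, and the 3 values also overlapped for LCYb with CHYb and for CHYb with BKT1. Within a library, however, LCYb was above CHYb in 3 of 3 cultures at 0 h, while LCYe was above the paralogue in 2 of 3 and CHYb above BKT1 in 2 of 3. At 6 h BKT1 (119) and LCYb (118 FPKM) led and overlapped with each other. Below them came CHYb (43.1), CYP97A (32.4), the paralogue (28.9), CYP97C (21.9), BKT2 (14.1) and LCYe (11.1 FPKM), each overlapping its neighbour. Of these neighbours, CHYb was above CYP97A and the paralogue above CYP97C in 3 of 3 cultures at 6 h. LCYe, first at 0 h, was seventh or last in every 6 h culture.

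**Figure D3:**
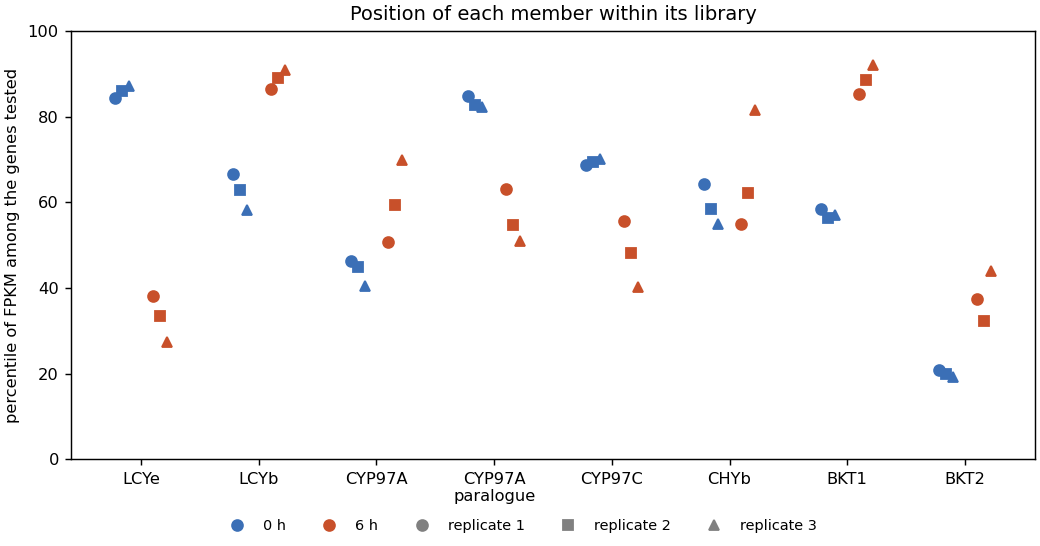
Percent of the genes tested with a lower FPKM in the same library (vertical axis, 0 to 100) for each of the 8 genes, at 0 h (blue) and 6 h (orange), with 1 symbol per culture. LCYe drops from 84.3 to 87.3 at 0 h to 27.4 to 38.0 at 6 h, while BKT1 goes from between 56.5 and 58.5 to between 85.4 and 92.0.

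Ranked within their libraries, LCYb moved from between 58.2 and 66.6 to between 86.5 and 90.9 percent, and BKT1 from between 56.5 and 58.5 to between 85.4 and 92.0 percent. The paralogue moved down from between 82.3 and 84.8 to between 50.9 and 63.2 percent and CYP97C from between 68.6 and 70.2 to between 40.3 and 55.8 percent. BKT2 ranked from 19.1 to 20.7 percent at 0 h and from 32.3 to 43.9 percent at 6 h, without overlap. CYP97A went from between 40.6 and 46.4 to between 50.7 and 69.8 percent, again without overlap. A rank also depends on the other genes of the library, and the deposited FPKM of BKT2 and CYP97A overlapped between the times. For BKT2, 10.7 FPKM in 6 h replicate 2 ranked at 32.3 percent, but 12.6 FPKM in 0 h replicate 1 at 20.7 percent. Genes with at least 1 FPKM were 13703 to 13745 in the 0 h libraries and 12516 to 12753 at 6 h. CHYb overlapped, with 54.9 to 64.2 percent at 0 h and 54.8, 62.3 and 81.5 percent at 6 h.

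The 6 h cultures differed more from each other than the 0 h cultures did. Over all genes the SD of residual log2 values was 0.165 to 0.195 in the 0 h libraries and 0.289 to 0.630 in the 6 h libraries, highest in replicate 3 and next in replicate 1 (0.541). Against the 0 h mean on scaled log2 values, LCYe was at -2.37, -2.58 and -2.88 in 6 h replicates 1, 2 and 3, BKT1 at 1.82, 2.04 and 2.39, and LCYb at 1.75, 1.92 and 2.03. CHYb was at -0.13, 0.26 and 1.22 and CYP97A at 0.17, 0.62 and 1.06 in the same order. For 8 of the 8 genes replicate 3 was the 6 h culture farthest from 0 h, in whichever direction the gene differed, whereas over all genes tested this was replicate 1 for 54.0%, replicate 2 for 14.5% and replicate 3 for 31.5%. With replicate 3 left out the log2 fold changes were -2.47 for LCYe, 1.84 for LCYb and 1.94 for BKT1, all called.

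The scaling between libraries matters for genes near the limits. The median-of-ratios factors lay between 1.11 and 1.13 at 0 h and between 0.884 and 0.914 at 6 h. With them the log2 fold change of all genes had a median of -0.04, and this median was -0.34 as deposited, -0.47 on TPM and -0.34 by upper quartiles. The share of calls that were higher was 42.9, 30.1, 25.5 and 30.3% in that order. LCYe, LCYb and BKT1 were called in the same direction in all 18 alternative settings, and none of the 8 genes changed direction in any of them. Beta-actin (Cz05g19150), the reference gene of the quantitative PCR of the study, had 344.15, 335.9 and 371.44 FPKM at 0 h and 934.17, 814.69 and 560.28 FPKM at 6 h. It was itself called higher (log2 fold change 1.41 with an SE of 0.21 in limma, Benjamini-Hochberg adjusted p = 0.00153), and was at 0.97 to 1.10 under the other scalings.

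**Figure D4:**
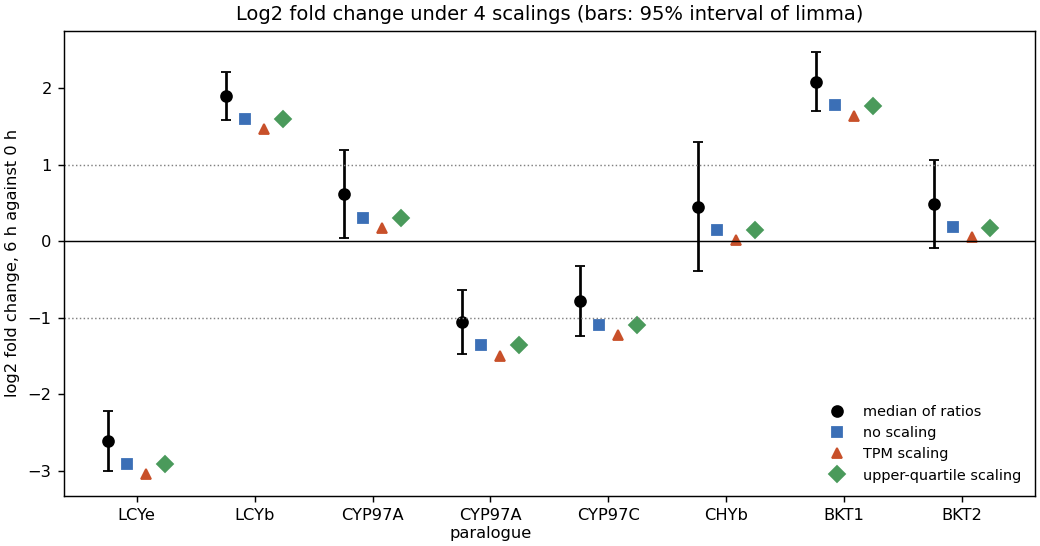
Log2 fold change of 6 h against 0 h (vertical axis) for the 8 genes with 4 ways of scaling the libraries; bars are the 95% interval of limma for the median-of-ratios scaling and dotted lines mark the limit of 1 in size. The other scalings lower all 8 values, which takes CYP97C from -0.78 past -1 and leaves the sign of every gene as it was.

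The other 29 genes of the carotenoid list lie before, beside or after these steps. Of the 12 that lead to isopentenyl diphosphate, the building block of carotenoids, limma called 4 higher and 1 lower, with a median log2 fold change of 0.75. Over all genes tested the shares called were 20.0% higher and 26.6% lower. The highest was MCS (Cz02g10180, 2.50), a step of the plastid MEP pathway, and the gene called lower was AACT (Cz04g25080, -1.40), the thiolase that starts the cytosolic mevalonate pathway. AACT and HCS (Cz19g02060, not called) are the mevalonate genes among the 12. The paper finds some mevalonate enzymes missing in this alga and cites proposals that green algae build carotenoids from the MEP pathway instead. HDS (Cz13g08020, 1.64), HDR (Cz05g23010, 1.06) and an isopentenyl diphosphate isomerase (Cz03g02150, 1.70) were the others called higher, and HDR fell under the limit on size with each other scaling (0.62 to 0.76). The other isomerase genes, Cz08g23110 (0.72) and Cz03g10110 (0.46), were under the limit on size and not called. Their means at 0 h were 54.7 and 59.0 FPKM, against 30.2 FPKM for Cz03g02150.

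From isopentenyl diphosphate to lycopene the calls were 2 of 10 genes higher and 1 lower, beside 20.0% and 26.6% of all genes tested. The median was 0.52. FPPS (Cz01g03190, 2.76), a farnesyl diphosphate synthase, and 1 of the 3 carotenoid isomerase genes (CRTISO, Cz14g22040, 2.37) were higher, and phytoene desaturase PDS (Cz02g32280, -1.07) was lower, though not without 6 h replicate 1 (-0.95). Carotenoid isomerase hands lycopene to the cyclases, and Cz14g22040 had 11.15, 11.45 and 10.61 FPKM at 0 h and 47.71, 47.89 and 43.81 FPKM at 6 h. The other CRTISO genes, with higher FPKM at 0 h, were not called: Cz16g01210 had a mean of 19.7 FPKM at 0 h and 14.5 at 6 h (log2 fold change -0.14, limma, Benjamini-Hochberg adjusted p = 0.404) and Cz12g03260 a mean of 33.6 FPKM at 0 h and 28.9 at 6 h (0.07, adjusted p = 0.746). Phytoene synthase, which makes the carotenoid skeleton, was not called (PSY, Cz05g32220, log2 fold change -0.15, limma, Benjamini-Hochberg adjusted p = 0.702).

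Beside and after the 8 genes, 4 of 7 genes were called lower and 1 higher, with a median of -1.15. Over all genes tested 26.6% were called lower and 20.0% higher. Besides the CruP-type cyclase, those lower were the genes of the xanthophyll cycle, which interconverts zeaxanthin and violaxanthin, and of neoxanthin synthesis. Zeaxanthin epoxidase (ZEP, Cz07g30060) had 78.21, 70.2 and 63.1 FPKM at 0 h and 10.63, 12.89 and 23.42 FPKM at 6 h (log2 fold change -1.94 with an SE of 0.29 in limma, Benjamini-Hochberg adjusted p = 0.00160). Its counterpart, violaxanthin de-epoxidase (VDE, Cz06g02070), had 113.3, 110.14 and 119.42 FPKM at 0 h and 47.19, 40.58 and 35.46 FPKM at 6 h (-1.17, SE 0.14, adjusted p = 5.01e-04 in the same limma fit). Neoxanthin synthase (NXS, Cz15g04070) had 66.03, 66.07 and 68.65 FPKM at 0 h and 24.27, 22.37 and 26.36 FPKM at 6 h (-1.15, SE 0.11, adjusted p = 1.91e-04 in the same limma fit). None of these 3 genes overlapped between the times, nor did 73.3% of all genes tested (46.1% with lower values at 6 h).

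A carotenoid cleavage dioxygenase (CCD, Cz04g35010) was called higher with overlapping deposited values, 17.42, 17.7 and 13.72 FPKM at 0 h and 17.37, 27.3 and 48.84 FPKM at 6 h (log2 fold change 1.12 with an SE of 0.37 in limma, Benjamini-Hochberg adjusted p = 0.0344). The call was lost under each other scaling (0.68 to 0.81) and whenever a library other than 6 h replicate 1 was left out, with 0.75 without 6 h replicate 3. The second dioxygenase (UNPLg00514, -0.11, adjusted p = 0.407) and AAT (Cz02g29020, 0.13, adjusted p = 0.511 in limma), a long-chain-alcohol O-fatty-acyltransferase gene that the study places at the esterification of astaxanthin, were not called. AAT had 25.97, 27.02 and 25.1 FPKM at 0 h and 19.12, 22.07 and 28.86 FPKM at 6 h, and its sign changed with the scaling.

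**Figure D5:**
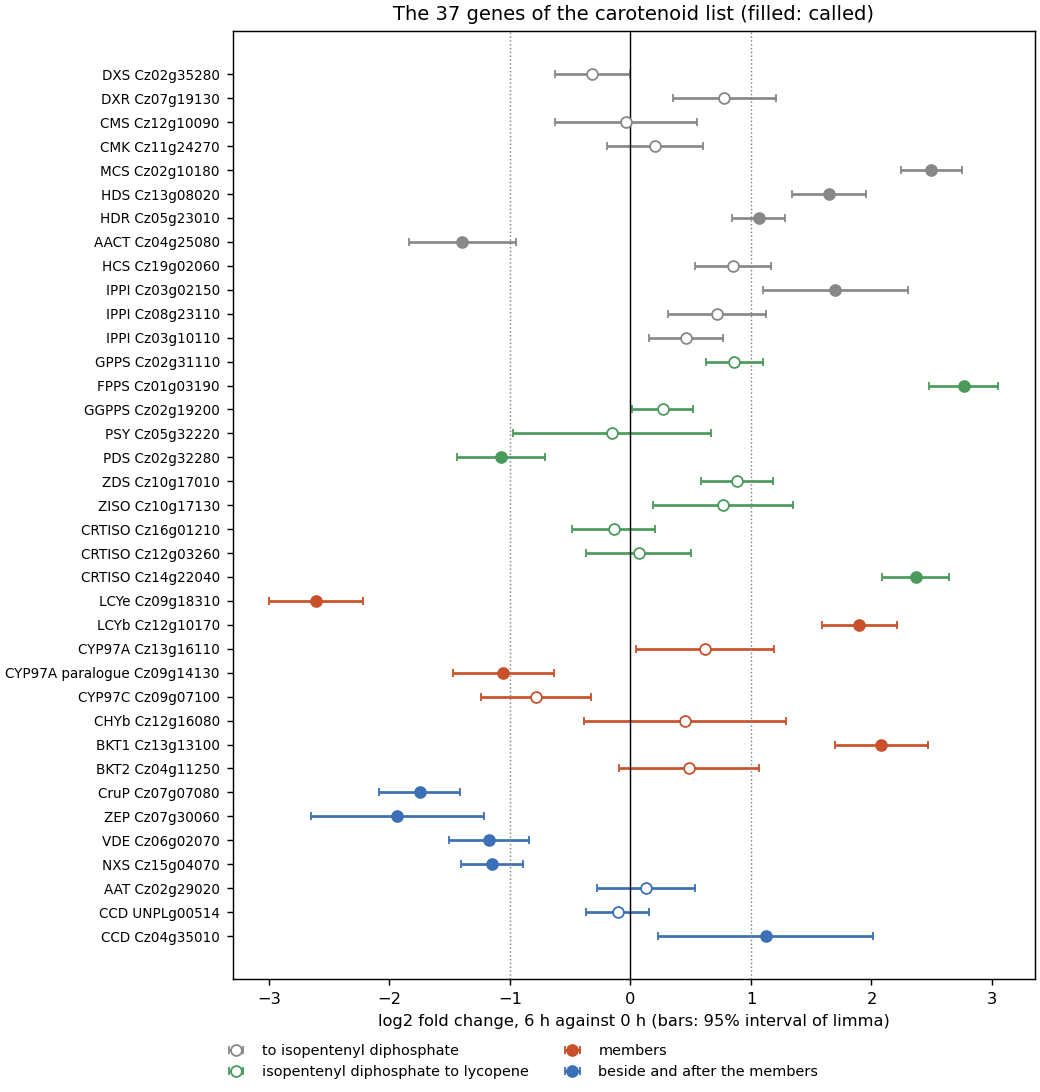
Log2 fold change of 6 h against 0 h (horizontal axis) with the 95% interval of limma for the 37 genes of the carotenoid list in pathway order, coloured by section; filled points were called higher or lower and dotted lines mark the limit of 1 in size. LCYe at -2.61 is the lowest of the 37 and FPPS at 2.76 the highest. Of the 7 genes beside and after the 8 described here, 4 were called lower, beside 26.6% of all genes tested.

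Likeness of pattern was measured as the root mean square over the 6 libraries of the difference between genes in log2 scaled value, each gene centred on its 0 h mean. Among the 8 genes the closest pair was LCYb with BKT1 (0.17), followed by CYP97A with CHYb (0.20) and the CYP97A paralogue with CYP97C (0.21). LCYe stood alone, at 1.11 from its nearest member, the paralogue, and 3.33 from BKT1. Of 388 genes in the carotenoid, lipid and transcription factor lists of the study, the nearest to LCYb was a ketoacyl-ACP reductase gene (KAR, Cz15g00050, distance 0.093) with 19.95, 18.88 and 18.31 FPKM at 0 h and 44.12, 58.7 and 63.6 FPKM at 6 h. In the paper a different KAR gene is the only one that encodes a chloroplast form. A gene annotated as a class 3 lipase (Cz19g09050) was nearest to BKT1 (0.12) and second to LCYb (0.13), and a homeobox gene (Cz12g02200, 0.15) was second to BKT1. LCYe was nearest to a gene for subunit C of nuclear factor Y (Cz01g10020, 0.15), which had 39.32, 40.7 and 43.89 FPKM at 0 h and 7.65, 5.81 and 3.87 FPKM at 6 h, and next to a lysophosphatidylcholine acyltransferase gene (Cz02g32040, 0.26).

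For the CYP97A paralogue the nearest were VDE (0.12) and an AINTEGUMENTA-like gene (Cz10g10110, 0.16), and for CYP97C a C2H2 zinc finger gene (Cz02g07210, 0.11) and a phosphatidylglycerophosphate synthase gene (Cz01g26070, 0.13). CYP97A and BKT2 shared theirs, a UDP-glucose pyrophosphorylase gene (UNPLg00641, 0.090 and 0.15) and a phosphatidylserine decarboxylase gene (Cz14g12220, 0.092 and 0.15). The nearest to CHYb were an RWP-RK domain gene (Cz11g29090, 0.096) and a MYB gene (Cz01g31240, 0.14). That RWP-RK gene had 25.65, 40.58 and 79.58 FPKM in the 6 h cultures and 40.89, 37.9 and 33.98 FPKM at 0 h, the order that CHYb showed. Over all 388 genes the median distance to a member was 0.79 to 1.95.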

How the data were processed

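The deposited values are FPKM per gene, which the authors estimated from poly-A RNA reads, 1 library per culture. For mapping and estimation the methods of the study name TopHat and Cufflinks, while the submitters' processing notes list HISAT, Bowtie2 and RSEM without roles. Reads were aligned to the C. zofingiensis genome, for which a build label, like the strand setting, is not given in the sources used here. Libraries listed 14233 to 14697 genes above 0, and a gene not listed was taken as 0. FPKM carry no counts, and the read totals per library that the study tabulates were not used here, so no counting interval was given. Nothing was mapped again. If the estimates split reads between paralogues, their levels carry that uncertainty, and none of the 8 genes had values identical to another gene.

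FPKM were divided by median-of-ratios factors, 0.1 was added, and log2 values of genes with a mean of at least 1 FPKM at either time were tested in limma 3.58.1 under R 4.3.3 (trend, time as the only term, two-sided, Benjamini-Hochberg over 13886 genes). The limits follow the study. Ratios and sums were compared by exact permutation over libraries (scipy 1.17.1). The labels name no batch. P-values measure the spread between these 3 cultures per time. The procedure was tested on simulated data in which both times had the same spread and few genes changed, each by well over the limit on size. That test does not bear on calls near the limit or on the wider spread at 6 h. Genes named were the 8, those of the list beside and after them, called genes of its other sections, the 2 nearest patterns per gene and beta-actin, and PSY and others outside that rule were chosen after their values were seen. The 8 genes, the lists and the limits were chosen with earlier results of these data known. Alternatives were other scalings, pseudocounts of 1 and 0.01, no filter or a mean of 10 FPKM, a replicate block, library weights, no trend, treat, no limit on fold, and each library left out. Columns of the study's own comparisons in its supplementary tables hold fold changes and p-values and were not used. Gene sequences, quantitative PCR and pigment measurements were not used here.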

Additional observations from a re-analysis of the deposited data

How the results depend on the processing

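LCYe, LCYb and BKT1 were called, and CYP97A, CHYb and BKT2 were not called, in all 18 settings, with no change of direction. CYP97A passed the limit on p without 6 h replicate 1 and with library weights, and CHYb with library weights (0.27, limma, Benjamini-Hochberg adjusted p = 0.00603), both under the limit on size. The fit of these weights did not fully converge. The exceptions to a steady call among the 8 genes were CYP97C and the CYP97A paralogue, given in the report, and the cause was not tested. Genes called higher among all tested were 1624 on TPM, 1384 with treat and 4665 with no limit on fold, and 2417 were called lower with treat. With treat, 1 of the 8 genes was called lower, 2 and 0 of the genes to isopentenyl diphosphate were higher and lower, 0 of those from there to lycopene were lower, and 2 beside and after the 8 were lower. With no limit on fold 8 and 5 of the 2 upstream sections were higher. The gene called higher beside and after the 8 (CCD, Cz04g35010) was 0 on deposited values, on TPM, by upper quartiles, with the replicate block and with treat. With 1 library left out in turn there were 1 to 2 of the 8 genes lower, 0 to 1 higher beside and after them and 0 to 1 lower between isopentenyl diphosphate and lycopene.

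On deposited values, TPM and upper-quartile values the log2 difference of the sums was 1.50, 1.37 and 1.50 for BKT1 with BKT2, -0.80, -0.93 and -0.80 for the P450 genes, -1.25, -1.38 and -1.25 for the lutein branch and 1.26, 1.13 and 1.26 for the astaxanthin branch. CHYb with CYP97A gave 0.087 on TPM. AAT (Cz02g29020) changed sign to -0.18, -0.31 and -0.18 under these scalings and to -0.017 without 6 h replicate 3, and PSY (Cz05g32220) ran from -0.51 without 6 h replicate 3 to 0.13 without 6 h replicate 1. The direction of all 7 ratios was kept in every setting run on them.

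Whether replicate numbers pair the cultures cannot be told here. The correlation over genes of the deviations of same-numbered libraries was -0.30, -0.11 and -0.49. For libraries with different numbers it ran from -0.19 to 0.45. Deviations from a mean of 3 libraries cancel, so these correlations cannot show whether same-numbered libraries came from 1 culture. With the replicate block 2696 genes were called higher and 3521 lower, the 8 genes kept their calls, and CCD Cz04g35010 lost its call (limma, Benjamini-Hochberg adjusted p = 0.0678). The exact sign-flip test of same-numbered pairs cannot go under 0.25 and gave that p for 6 ratios and 4 sums, and 0.5 for CHYb over CYP97A and for their sum. Read totals were not used, so limits set by depth are not given here.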

Other observations

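CHYb was not the single carotenoid gene whose 6 h cultures spread widely with replicate 3 on top, an observation made after the values were seen. Among the 37 genes of the carotenoid list the largest SDs of log2 values between the 6 h cultures were those of the dioxygenase CCD Cz04g35010 (0.73), CHYb (0.69), PSY (0.67) and ZEP (0.58), and these 4 genes were highest in replicate 3. The next, CMS (0.48) and an isopentenyl diphosphate isomerase (Cz03g02150, 0.45), were highest in replicate 1. Of all 37, 19 were highest in replicate 3, 13 in replicate 1 and 5 in replicate 2, beside 40.2, 45.0 and 14.8% of all genes tested. PSY, phytoene synthase, had 37.16, 42.78 and 32.6 FPKM at 0 h and 17.76, 24.51 and 45.4 FPKM at 6 h, so its groups overlapped as those of CHYb did. Within a library the level of CHYb over that of PSY was 1.46, 1.44 and 1.50 at 6 h, a narrow range beside the spread of either gene alone, and 1.083, 0.823 and 1.001 at 0 h. CHYb over the dioxygenase was 1.50, 1.29 and 1.40 at 6 h, against 2.31, 1.99 and 2.38 at 0 h. LCYb, BKT1 and LCYe, which were called in every setting, were not among these wide genes, with SDs of 0.14, 0.29 and 0.26.

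For genes with values between 0.05 and 0.3 FPKM, where a few fragments make up a value, the most common ratio of the value of a gene to its value in 0 h replicate 1 was 1.01 and 1.06 in the other 0 h libraries and 1.41, 1.27 and 1.03 in 6 h replicates 1, 2 and 3. Replicate 3, the 6 h library with a ratio near those of the 0 h libraries, is the one in which CHYb, CYP97A and BKT2 were highest. Among the 6 h cultures LCYb and BKT1 were also highest in replicate 3, while LCYe, CYP97C and the CYP97A paralogue were lowest there. The part of this ratio in those values was not tested.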
